A study of Homo sapiens with 12 samples.

Results

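The clustered histone genes are the mostly replication-coupled genes of the H1, H2A, H2B, H3 and H4 families, whose current symbols begin with H1-, H2AC, H2BC, H3C or H4C. Every probe set (the group of short probes by which the array reads a transcript) that named exactly 1 such gene was taken, and probe sets of 1 gene were averaged. This gave 58 probe sets for 50 genes, out of 19775 genes measured. Of the 50 genes, 46 code for a protein: 9 linker histones of the H1 family, 8 of the H2A, 14 of the H2B, 7 of the H3 and 8 of the H4 family. The other members are 2 pseudogenes (H2AC5P and H4C10P), 1 transcribed pseudogene (H1-9P) and the long non-coding RNA H1-10-AS1, which meets the naming rule without being a histone gene. Of the coding members, 40 lie on chromosome 6, 2 on chromosome 1 and 4 elsewhere.

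RNA came from Imr90 cells, a line of human foetal lung fibroblasts that stops dividing after a limited number of population doublings when grown in room oxygen. Expression was measured on 12 arrays in 4 groups of 3, labelled as biological replicates. Young cells at population doubling 30 were grown at 20% oxygen or at 3% oxygen. Senescent cells at doubling 48 were grown at 20% oxygen, and old cells at doubling 53, which the labels call nonsenescent, at 3% oxygen. Each oxygen level had an incubator of its own, so oxygen and incubator cannot be told apart, and all cells come from 1 line. Nothing says how far the replicate cultures were kept apart, so the p-values measure the spread between these arrays, whose number limits their precision. The deposited values are log2 signals from which each probe set's median over the 12 arrays had been subtracted. A value of 0 therefore means that gene's own median array. Changes between groups can be read from such values, but not how abundant a transcript is, and levels of different genes cannot be compared.

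Histones H3 and H4 form the core of the nucleosome, dimers of H2A and H2B flank it, and H1 binds the linker DNA between nucleosomes. Most genes studied here are transcribed mainly in S phase, when new chromatin is assembled, and their messages end in a stem-loop instead of a poly(A) tail. Some of them can also give polyadenylated messages, which have been described in differentiated cells and cells outside the cycle. The primer of the cDNA reaction is not given in the sources used here, and neither is which of these message forms was labelled.

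The promoters of 6 members that differed between the groups are printed here as examples. No promoter of an H4 gene is among them, and none of H2BC5, H2BC6, H2AC14 or H2BC12L, which also differed. Each sequence covers the 250 bases before the RefSeq transcription start in GRCh38.p14 and is read 5′ to 3′ along the gene. Capitals mark, on either strand, the TATA box (TATAAA), the CCAAT box (CCAAT), the octamer of H2A and H2B promoters (ATTTGCAT), the H1 box (AAACACA) and the core of a hypoxia response element (ACGTG). In H2BC12 the first capital run holds a TATA box on each strand, overlapping.
H2BC21: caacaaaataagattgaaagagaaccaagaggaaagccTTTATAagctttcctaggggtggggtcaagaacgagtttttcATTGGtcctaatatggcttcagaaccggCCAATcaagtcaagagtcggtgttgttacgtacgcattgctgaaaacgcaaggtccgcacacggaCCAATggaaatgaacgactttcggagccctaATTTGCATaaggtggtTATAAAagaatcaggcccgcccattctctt
H2BC12: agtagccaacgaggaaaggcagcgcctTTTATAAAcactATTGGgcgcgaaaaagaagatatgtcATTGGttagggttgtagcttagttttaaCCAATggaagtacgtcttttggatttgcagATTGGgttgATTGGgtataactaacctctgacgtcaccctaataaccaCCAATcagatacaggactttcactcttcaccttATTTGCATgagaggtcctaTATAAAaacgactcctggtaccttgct
H2AC6: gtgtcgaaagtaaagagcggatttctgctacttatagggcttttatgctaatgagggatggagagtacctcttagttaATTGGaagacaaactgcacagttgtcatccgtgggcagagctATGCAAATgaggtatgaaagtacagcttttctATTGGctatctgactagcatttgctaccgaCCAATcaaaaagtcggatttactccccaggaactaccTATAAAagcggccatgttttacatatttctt
H1-2: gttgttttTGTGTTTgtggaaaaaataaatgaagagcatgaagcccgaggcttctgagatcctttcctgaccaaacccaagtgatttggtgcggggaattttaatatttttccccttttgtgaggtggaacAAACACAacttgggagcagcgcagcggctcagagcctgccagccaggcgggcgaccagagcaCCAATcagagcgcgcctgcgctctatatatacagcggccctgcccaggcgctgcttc
H1-10: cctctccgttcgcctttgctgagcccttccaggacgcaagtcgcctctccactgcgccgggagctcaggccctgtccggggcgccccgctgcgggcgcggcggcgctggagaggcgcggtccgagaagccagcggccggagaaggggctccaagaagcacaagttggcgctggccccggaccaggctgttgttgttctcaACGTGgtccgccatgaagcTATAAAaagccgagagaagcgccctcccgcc
H3C3: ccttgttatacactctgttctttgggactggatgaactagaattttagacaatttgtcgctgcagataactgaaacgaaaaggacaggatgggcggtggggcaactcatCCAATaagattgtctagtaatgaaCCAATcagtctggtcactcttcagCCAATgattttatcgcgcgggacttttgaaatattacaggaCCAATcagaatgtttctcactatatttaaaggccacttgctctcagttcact

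H2BC21 lies on chromosome 1 (chr1:149886683-149886932, minus strand), and H2BC12 on chromosome 6 (chr6:27146859-27147108, minus strand). H2AC6 (chr6:26123922-26124171, plus strand), H1-2 (chr6:26056471-26056720, minus strand) and H3C3 (chr6:26045134-26045383, plus strand) are also on chromosome 6. H1-10, a linker histone gene outside the clusters, is on chromosome 3 (chr3:129316287-129316536, minus strand). The windows given are those of the printed bases. H2BC21 and H2BC12 both held the octamer starting at -46 from the start site and a TATA box at -30 and -27 respectively. H2AC6 held the octamer on the opposite strand at -130, and a TATA box at -31. H1-2 held H1 boxes at -242 and -119 but no TATAAA, and H3C3 held 4 CCAAT boxes and no TATAAA. H1-10 held a TATA box at -31 and ACGTG at -50.

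A promoter sequence was matched for 43 of the 46 coding members, and the same letters were counted in all 27305 promoters of the RefSeq table. The CCAAT box was present in 37 of the 43 members (86.0%) and in 33.0% of all promoters, and TATAAA in 28 members (65.1%) and 11.1% of all promoters. The octamer was present in 16 members (37.2%) and 1.66% of all promoters. It stood in 6 of 8 H2A and 10 of 13 H2B promoters and in 0 of 9 H1, 0 of 6 H3 and 0 of 7 H4 promoters. The H1 box was present in 7 members, all among the 9 H1 promoters, and in 4.95% of all promoters. ACGTG was present in 7 members (16.3%), close to the 18.7% of all promoters. Among the 9 matched members that differed between the groups, 8 held a CCAAT box, 7 held TATAAA, 5 held the octamer, 1 held the H1 box and 1, H1-10, held ACGTG. These are matches of letters and not sites shown to be bound.

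Over the 4 groups, 10 of the 50 members differed at an adjusted p under 0.05. That is 20% of members against 20.0% of all genes tested, so differing was as frequent here as over the whole array. The 10 members were H2AC6, H2AC14, H2BC5, H2BC6, H2BC12, H2BC12L, H2BC21, H1-2, H1-10 and H3C3. The call of H2AC14 (adjusted p = 0.0444) was lost with the replicate block (0.0851) and without any 1 of 8 arrays: the first young array at 20%, each senescent array, the first or second young array at 3%, and the first or second old array (adjusted p between 0.056 and 0.168). That of H2BC6 (0.0192) was lost without the first or second young array at 3% (0.0633 and 0.0728). By family, the 10 were 5 of 14 H2B genes, 2 of 8 H2A, 2 of 9 H1, 1 of 7 H3 and 0 of 8 H4 genes. In 8 of the 10 the senescent group had the highest mean. The exceptions were H1-10 and H3C3, whose means were higher in both groups at 3% oxygen than in either at 20%. Over all 50 members the senescent group had the highest mean in 30 (60.0%), against 31.7% of all genes, and young cells at 3% oxygen had the lowest in 28 (56.0%), against 36.5%. The heat map of the members on every array shows most of the H2A and H2B members that differed as high at 20% and low at 3% oxygen.

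**Figure D1:**
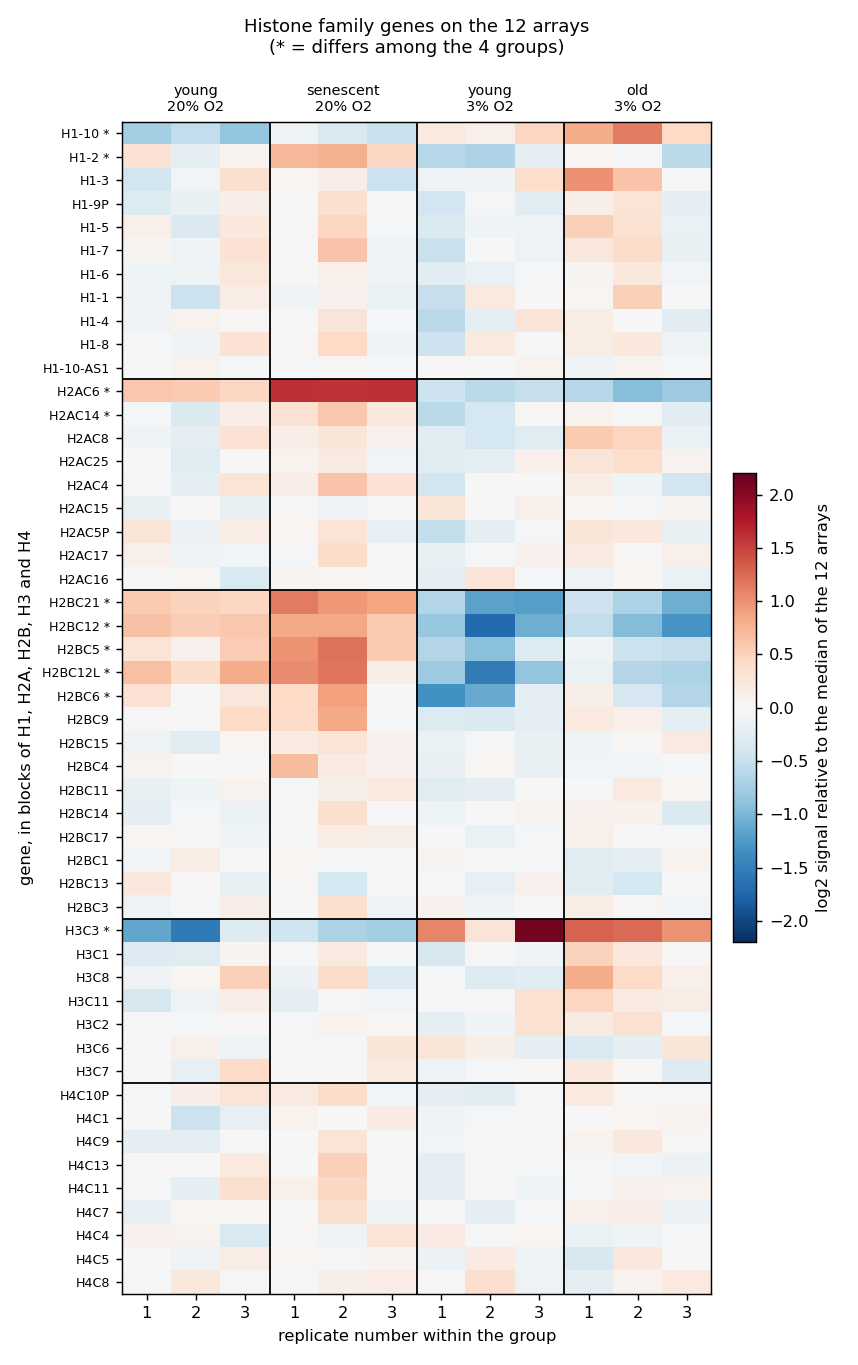
Heat map of the 50 members (vertical axis, grouped by histone family) on the 12 arrays (horizontal axis, 4 groups of 3), coloured by log2 signal relative to each gene's own median array. The 10 members that differed between the groups carry most of the colour, while the 40 others stay between -0.6 and 1.0.

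In young cells, lower oxygen went with less message of a set of H2A and H2B genes and with more of H1-10 and H3C3. The test was passed by 8 members, where 11.8% of all genes passed: H2BC12, H2BC12L, H2BC21, H2BC6, H2AC6 and H2BC5 were lower at 3% oxygen (6 of 50; 6.84% of all genes), and H3C3 and H1-10 were higher (2 of 50; 4.96% of all genes). The median change of the 50 members was -0.08, beside -0.03 over all genes. In RNA from whole cultures, fewer cells with a transcript and less of it per cell cannot be told apart.

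H2BC12, an H2B gene, had values of 0.65, 0.54 and 0.60 on the young arrays at 20% oxygen and -0.84, -1.71 and -1.07 at 3%. Its senescent arrays read 0.84, 0.85 and 0.58, and its old arrays at 3% read -0.54, -0.95 and -1.30. All 6 arrays at 20% oxygen lay above all 6 at 3%. In young cells the log2 change was -1.80 (SE 0.21), a 3.49-fold lower signal at 3% oxygen (adjusted p = 9.82e-05).

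H2BC21 is an H2B gene of the chromosome 1 cluster. Its values in young cells were 0.58, 0.50 and 0.45 at 20% oxygen and -0.65, -1.17 and -1.21 at 3%. Senescent arrays read 1.14, 0.96 and 0.87, and old arrays read -0.45, -0.70 and -1.07. Here too the oxygen levels separated every array, and senescent arrays also stood above young ones at 20%. The young cells differed 2.87-fold (log2 change -1.52, SE 0.17, adjusted p = 5.86e-05).

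H2BC12L, an H2B gene very close in sequence to H2BC12 but located on chromosome 21, read 0.66, 0.40 and 0.82 in young cells at 20% oxygen and -0.80, -1.53 and -0.86 at 3%. Its senescent values were 1.04, 1.18 and 0.15, and its old values -0.15, -0.64 and -0.70. The third senescent array lay below the young arrays at 20% but above every array at 3%. The signal in young cells was 3.23-fold lower at 3% oxygen (log2 change -1.69, SE 0.27, adjusted p = 9.98e-04).

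H2BC5 read 0.30, 0.10 and 0.56 in young cells at 20% oxygen and -0.65, -0.92 and -0.30 at 3%, with 0.98, 1.20 and 0.58 in senescent and -0.10, -0.47 and -0.50 in old cells. The groups at 20% did not overlap those at 3%. The young cells differed 1.92-fold (log2 change -0.94, SE 0.19, adjusted p = 0.00573). Its 2 probe sets gave changes of -1.13 and -0.76, of which only the first passed when fitted singly (adjusted p = 0.00357 and 0.0586).

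H2AC6, which codes for an H2A, read 0.59, 0.57 and 0.45 in young cells at 20% oxygen, 1.61, 1.59 and 1.61 in senescent cells, -0.45, -0.60 and -0.51 in young cells at 3% and -0.63, -0.93 and -0.80 in old cells. No 2 of the 4 groups overlapped. The young cells differed 2.08-fold (log2 change -1.06, SE 0.09, adjusted p = 8.88e-06).

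H2BC6 was less even, with 0.31, 0.00 and 0.25 in young cells at 20% oxygen and -1.33, -1.11 and -0.22 at 3%. Senescent arrays read 0.43, 0.91 and -0.00, and old arrays 0.13, -0.37 and -0.64. The third young array at 3% lay far above its group. The log2 change in young cells was -1.07 (SE 0.29, 2.10-fold, adjusted p = 0.0295). Leaving out any of the young arrays at 20% oxygen, or the first or second at 3%, ended this call (adjusted p between 0.0532 and 0.119), as did blocking on replicate number (0.0609).

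H3C3, an H3 gene, ran the other way: -1.15, -1.55 and -0.29 in young cells at 20% oxygen, -0.44, -0.69 and -0.76 in senescent cells, 1.08, 0.29 and 2.11 in young cells at 3% and 1.29, 1.24 and 0.99 in old cells. Every array at 3% lay above every array at 20%, and the spread within young cells was wide. The signal in young cells was 4.46-fold higher at 3% oxygen (log2 change 2.16, SE 0.38, adjusted p = 0.00214). H1-10, a replication-independent linker histone, read -0.75, -0.55 and -0.86 in young cells at 20% and 0.22, 0.12 and 0.48 at 3%. Senescent arrays read -0.12, -0.34 and -0.49, and old arrays 0.82, 1.13 and 0.43. Arrays at 3% again stood above all arrays at 20%, with a 1.99-fold difference in young cells (log2 change 1.00, SE 0.17, adjusted p = 0.00166).

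**Figure D2:**
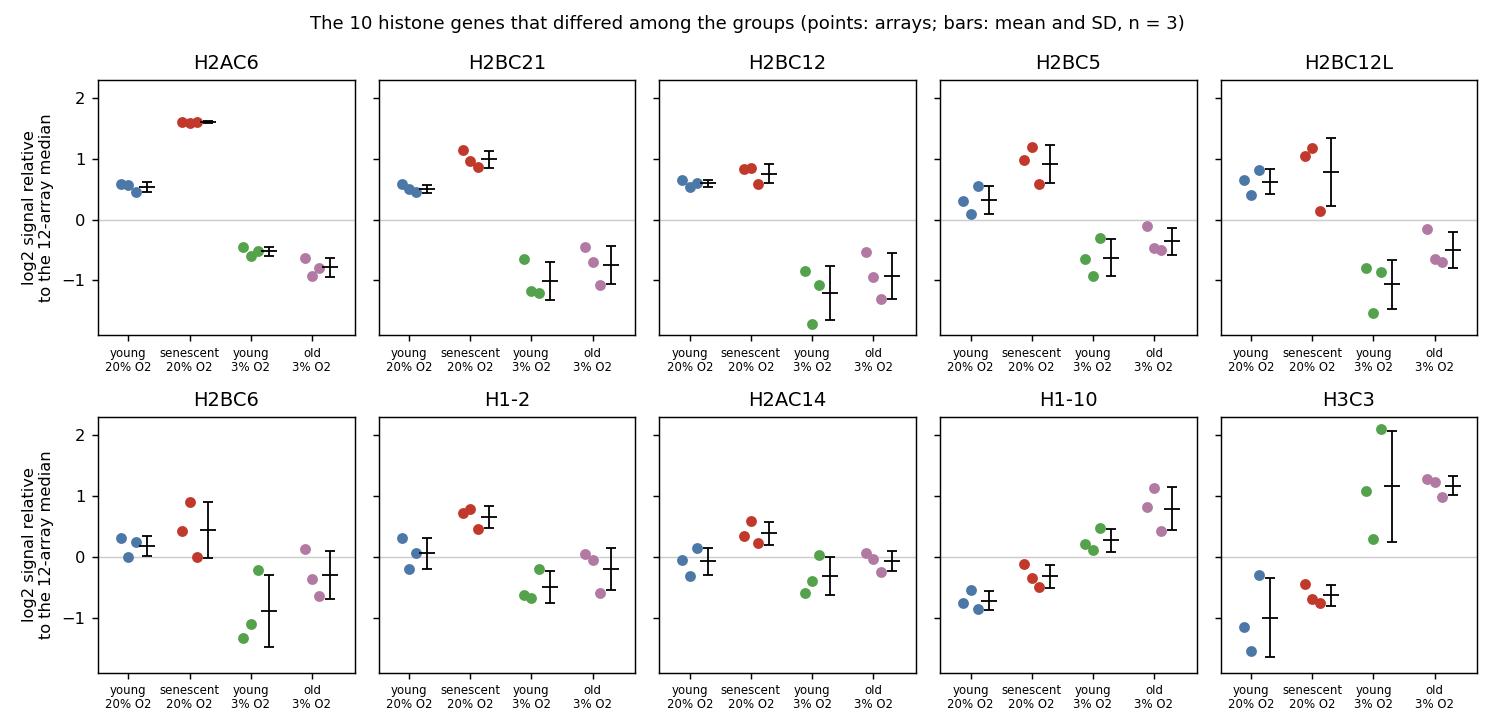
Log2 signal relative to the gene's median over the 12 arrays (vertical axis) of the 10 members that differed, for the 4 groups (horizontal axis), with 1 point per array and bars for the mean and SD of 3 arrays. H2BC12, H2BC21, H2BC12L, H2BC5 and H2AC6 lie higher on all arrays at 20% oxygen than on any at 3%, H1-10 and H3C3 lie lower, and of the 10 only H2AC6 separates all 4 groups.

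Passage to senescence at 20% oxygen changed 1 member by the test: H2AC6 rose 2.10-fold (log2 change 1.07, SE 0.09, adjusted p = 1.14e-05), from a mean of 0.54 ± 0.08 to 1.60 ± 0.01 (SD, n = 3 each). Of all genes 12.5% passed, 4.67% as higher and 7.84% as lower, beside 1 of 50 members as higher and 0 as lower. Changes were above 0 in 42 of the 50 members and in 11741 of all 19775 genes. The median change was 0.13 over the members, beside 0.04 over all genes. Of the 50 members, 10 had an unadjusted p under 0.05, beside 4297 of all 19775 genes.

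Among those that missed the threshold, H2BC5 had a log2 change of 0.60 (SE 0.19, adjusted p = 0.0654), H1-2 of 0.60 (SE 0.19, adjusted p = 0.0626) and H2BC21 of 0.48 (SE 0.17, adjusted p = 0.0953). In these 3 genes every senescent array lay above every young array at 20% oxygen. H2AC14 changed by 0.46 (SE 0.17, adjusted p = 0.107), also without overlap. H2BC12, H2BC12L and H2BC6, which were lower in young cells at 3% oxygen, differed by 0.16, 0.16 and 0.26 with adjusted p of 0.798, 0.839 and 0.736. The counts under other settings that follow come without the share of all genes that passed under the same setting. With array weights 15 members passed as higher. With quantile normalisation H1-2, H2AC14 and H2BC5 passed as well, and blocking on replicate number added H2BC21 (adjusted p = 0.0231). Leaving out 1 array added 1 member in 4 cases: H2BC5 without the third senescent array (adjusted p = 0.0286), H1-2 without the third old array (0.0265), H2BC21 without the first young array at 3% (0.0427) and H4C1 without the first young array at 20% (0.0489).

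At 3% oxygen, from young to old cells that had passed more doublings than the senescent ones, 0 of the 50 members passed limma's test. Of all genes 1.74% passed, 0.981% as higher and 0.759% as lower. An unadjusted p under 0.05 was found for 9 of the 50 members, beside 2815 of all 19775 genes. The median change was 0.16, beside 0.05 over all genes. Changes were above 0 in 38 of the 50 members and in 11774 of all genes. The widest changes were those of H3C8, an H3 gene, at 0.65 (SE 0.21, adjusted p = 0.204), and H2AC8, an H2A gene, at 0.60 (SE 0.18, adjusted p = 0.141). H2AC6 changed by -0.27 (SE 0.09, adjusted p = 0.242). Leaving out the third old array, which correlated least with its own group (mean correlation 0.266), brought H2AC8 and H1-10 past the threshold (adjusted p = 0.0112 and 0.0419).

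**Figure D3:**
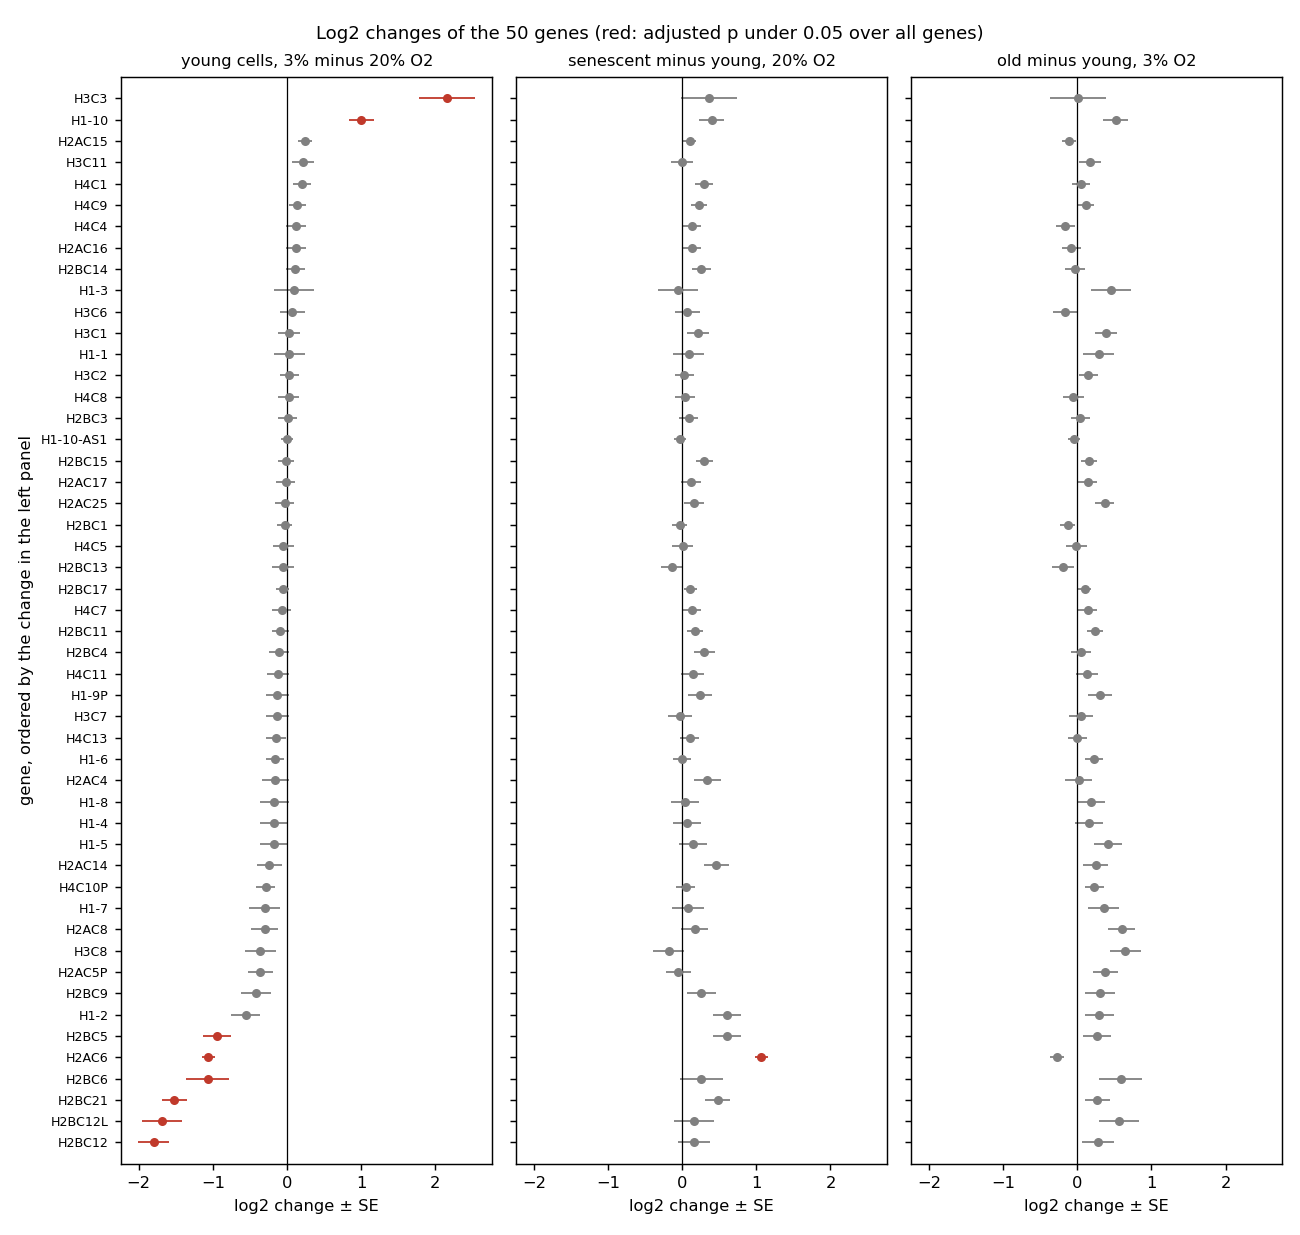
Log2 changes with their standard errors (horizontal axes) of the 50 members (vertical axis, ordered by the left panel) in young cells by oxygen, with senescence at 20% oxygen and with passage at 3% oxygen, red where the adjusted p was under 0.05. In the left panel 6 members lie left of 0 in red and 2 right of it, the middle panel has H2AC6 alone in red at 1.07, and the right panel has none.

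Whether the passage change itself differed between the oxygen levels was tested as an interaction, for which 6.44% of all genes passed (2.06% with the more positive change at 20% oxygen, 4.37% with the more negative). H2AC6 was the 1 member to pass: it rose with passage at 20% by 1.33 log2 units more than at 3% (SE 0.13, adjusted p = 6.85e-05). The median over the members was 0.00. H3C8 had the widest value in the other direction, -0.82 (SE 0.30, adjusted p = 0.154).

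Old cells at 3% oxygen were then set against senescent cells at 20%. The means compared come from other arrays than those of the young cells, but all 12 arrays gave 1 estimate of spread per gene. The test was passed by 8 members (16% of members, 11.0% of all genes): H2AC6, H2BC21, H2BC12, H2BC12L, H2BC5 and H1-2 were lower in old cells (6 of 50; 4.41% of all genes), and H3C3 and H1-10 were higher (2 of 50; 6.59%). H2AC6 had the widest log2 difference among the members, -2.39 (SE 0.09, 5.25-fold, adjusted p = 1.05e-08), followed by H3C3 at 1.80 (SE 0.38, 3.49-fold, adjusted p = 0.00748). H2BC21 was 3.33-fold and H2BC12 3.21-fold lower in old cells (log2 differences -1.73 and -1.68). H2BC5 and H2BC12L were 2.43-fold and 2.44-fold lower, and H1-10 was 2.17-fold higher (log2 difference 1.12, SE 0.17, adjusted p = 7.36e-04).

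H1-2, a linker histone gene of the main cluster, read 0.73, 0.79 and 0.46 in senescent cells and 0.05, -0.05 and -0.60 in old cells. Young cells read 0.31, -0.20 and 0.07 at 20% oxygen and -0.62, -0.68 and -0.20 at 3%. Its senescent arrays lay above all 9 others. The log2 difference between old and senescent cells was -0.86 (SE 0.19, 1.82-fold, adjusted p = 0.0101). In young cells its change with oxygen was -0.56 (SE 0.19, adjusted p = 0.0826). With senescent and old arrays fitted alone and blocked on replicate number, H2AC14 and H2BC6 also passed as lower and H1-3 as higher in old cells (adjusted p = 0.0188, 0.0217 and 0.011).

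Senescent cells were also set against the mean of the other 3 groups. In this comparison 8 members were higher in them (8 of 50; 5.25% of all genes) and 1 was lower (7.81% of all genes), while 13.1% of all genes passed in either direction. The higher members were H2AC6 (3.63-fold, log2 1.86, SE 0.08, adjusted p = 1.58e-08), H2BC21 (2.65-fold, log2 1.41), H2BC12 (2.41-fold, log2 1.27), H2BC5 (2.20-fold, log2 1.14), H2BC12L (2.15-fold, log2 1.10), H1-2 (1.83-fold, log2 0.87), H2BC6 (1.71-fold, log2 0.78) and H2AC14 (1.45-fold, log2 0.54). H3C3 was the lower one (2.11-fold, log2 -1.08, SE 0.31, adjusted p = 0.0378). For H2BC12, H2BC12L, H2BC6 and H3C3 senescent arrays overlapped young arrays at 20% oxygen, and only H2AC6 passed against that group alone. H2AC14, an H2A gene, read 0.34, 0.59 and 0.23 in senescent cells, -0.05, -0.31 and 0.14 in young cells at 20%, -0.59, -0.39 and 0.03 in young cells at 3% and 0.07, -0.03 and -0.24 in old cells (adjusted p = 0.0193). Its senescent arrays lay above all others, but leaving out the first or second of them ended the call (adjusted p = 0.0631 and 0.125). H2BC6 (adjusted p = 0.0488) lost its call without any 1 of 9 arrays, namely each young array at 20%, the first or second senescent array, the first or second young array at 3%, and the second or the third old array (adjusted p between 0.0657 and 0.28), and also with the replicate block (0.0898). H3C3 lost its call without any 1 senescent array (adjusted p between 0.0856 and 0.139), without the first young array at 20% or at 3% (0.0545 and 0.0505), and without the first or second old array (0.0647 and 0.0614).

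Counted by arrays that did not overlap, 9 of 50 members separated senescent from young cells at 20% oxygen (29.3% of all genes) and 7 separated old from young cells at 3% (15.6%). Young cells at 3% and 20% were separated by 13 members (29.7%) and old from senescent cells by 12 (24.3%). In 6 members the senescent arrays stood apart from all 9 others (8.34% of all genes). These shares of the members are at or below those of all genes except for the last.

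Some members share a start region. H2AC6 and H2BC4 are transcribed away from each other, and 245 of the 250 bases before their starts are the same stretch, so the H2AC6 promoter printed above is nearly all of the H2BC4 promoter read from the other side. H2BC4 read 0.07, -0.00 and 0.00 in young cells at 20% oxygen, 0.69, 0.18 and 0.09 in senescent cells, -0.16, 0.05 and -0.17 in young cells at 3% and -0.06, -0.06 and -0.02 in old cells. Its change in young cells with oxygen was -0.11 (adjusted p = 0.648) and with senescence at 20% oxygen 0.30 (SE 0.14, adjusted p = 0.228), beside -1.06 and 1.07 for H2AC6. Probe sets that named H2BC4 along with H2BC6, H2BC7, H2BC8 and H2BC10 changed by -0.68, -0.79 and 0.00 with oxygen in young cells. Their adjusted p were 0.0326, 0.0413 and 0.996. With senescence at 20% they changed by 0.01, 0.16 and 0.29 (adjusted p = 0.992, 0.855 and 0.276). The difference between H2AC6 and H2BC4 was not tested. H2AC14 and H2BC14 share 244 bases in the same way. H2BC14 did not differ between the groups (adjusted p = 0.515), with a change of 0.26 (SE 0.13, adjusted p = 0.296) in senescence at 20% oxygen. The pairs H2BC17 with H2AC17 (239 bases) and H2BC15 with H2AC15 (193 bases) held no member that passed.

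The remaining 40 members, 36 of them coding, had adjusted p between 0.104 and 0.977 over the groups. The lowest belonged to H2AC8 (0.104), H2BC9 (0.119) and H2BC15 (0.142). Their SD over the 12 arrays ran from 0.0531 to 0.42 with a median of 0.193, against 0.33 to 1.15 among the 10 that differed. Their changes ran from -0.18 to 0.34 with senescence at 20% oxygen, from -0.19 to 0.65 with passage at 3%, and from -0.42 to 0.24 with oxygen in young cells. Members of low signal cannot be told from members of steady signal in centred values. By family, the mean of the 14 H2B genes was 0.15 ± 0.06 in young cells at 20%, 0.37 ± 0.16 in senescent cells, -0.39 ± 0.12 in young cells at 3% and -0.21 ± 0.12 in old cells (SD, n = 3). The 8 H2A genes had means of 0.02 ± 0.07, 0.34 ± 0.10, -0.16 ± 0.10 and -0.04 ± 0.13 in that order. The 8 H4 genes stayed between -0.03 ± 0.06 and 0.10 ± 0.09, and the 7 H3 genes ran from -0.15 ± 0.22 in young cells at 20% to 0.32 ± 0.14 in old cells. Few genes carried these means: the median change in young cells by oxygen was -0.10 over the H2B genes and 0.03 over the H3 genes, of which H3C3 changed by 2.16. The 9 H1 genes ran from -0.12 ± 0.21 in young cells at 3% to 0.21 ± 0.27 in old cells.

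Many histone genes are nearly identical in their coding parts, so 1 probe set can read several of them. Of the 10 members that differed, 7 were measured only by probe sets whose design name marks possible binding to other transcripts: H2AC6, H2AC14, H2BC5, H2BC6, H2BC12L, H2BC21 and H1-10. H1-2, H2BC12 and H3C3 had plain probe sets, and with those alone all 3 were again called over the groups. RefSeq lists 74 coding genes under these names, of which 46 had a probe set of their own here. A further 20 probe sets named several genes and were fitted singly among 54613 probe sets. Of these, 7 differed between the groups (14.8% of all probe sets), 4 differed in young cells by oxygen (8.55%), and 5 in senescent cells against the rest (9.81%). The one with the lowest adjusted p over the groups (1.85e-04) read the H2A genes H2AC18 and H2AC19. It gave 0.53, 0.06 and 0.51 in young cells at 20%, 0.93, 1.20 and 0.76 in senescent cells, -1.25, -0.88 and -0.47 in young cells at 3% and -0.06, -0.22 and -0.30 in old cells. Young cells were 2.34-fold lower at 3% oxygen by it (log2 change -1.23, SE 0.20, adjusted p = 0.00156), and all arrays at 20% lay above those at 3%. The other probe sets naming this pair changed by -0.27 and -0.48 and did not pass (adjusted p = 0.401 and 0.138). A probe set shared by H2AC11, H2AC12, H2AC13, H2AC15, H2AC16 and H2AC17 was 2.28-fold higher in young cells at 3% (log2 change 1.19, SE 0.32, adjusted p = 0.0366). The other probe set naming these 6 genes had the opposite sign, -0.43 (SE 0.24, adjusted p = 0.36), so the direction for these genes was not settled.

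The plot of changes by gene list sets the members beside genes that serve DNA replication and histone supply. Of 25 genes of DNA replication and proliferation, 22 were higher and 0 lower in young cells at 3% than at 20% oxygen, with a median change of 1.10, where 11.8% of all genes passed. TOP2A, the topoisomerase of dividing cells, was 4.06-fold higher (log2 2.02), the cyclin gene CCNA2 3.90-fold (log2 1.96), the mitotic kinase CDK1 3.76-fold (log2 1.91) and the ribonucleotide reductase subunit RRM2 3.66-fold (log2 1.87). With senescence at 20% oxygen 7 of the 25 were lower and 0 higher, where 7.84% and 4.67% of all genes were. Among the 7 was MCM6 of the replicative helicase (log2 -1.09, 2.13-fold, adjusted p = 6.60e-05). The mean over the 25 genes was -0.46 ± 0.06 in young cells at 20%, -0.69 ± 0.06 in senescent cells, 0.64 ± 0.04 in young cells at 3% and 0.50 ± 0.08 in old cells (SD, n = 3). Whether these genes had a part in the histone results was not tested.

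**Figure D4:**
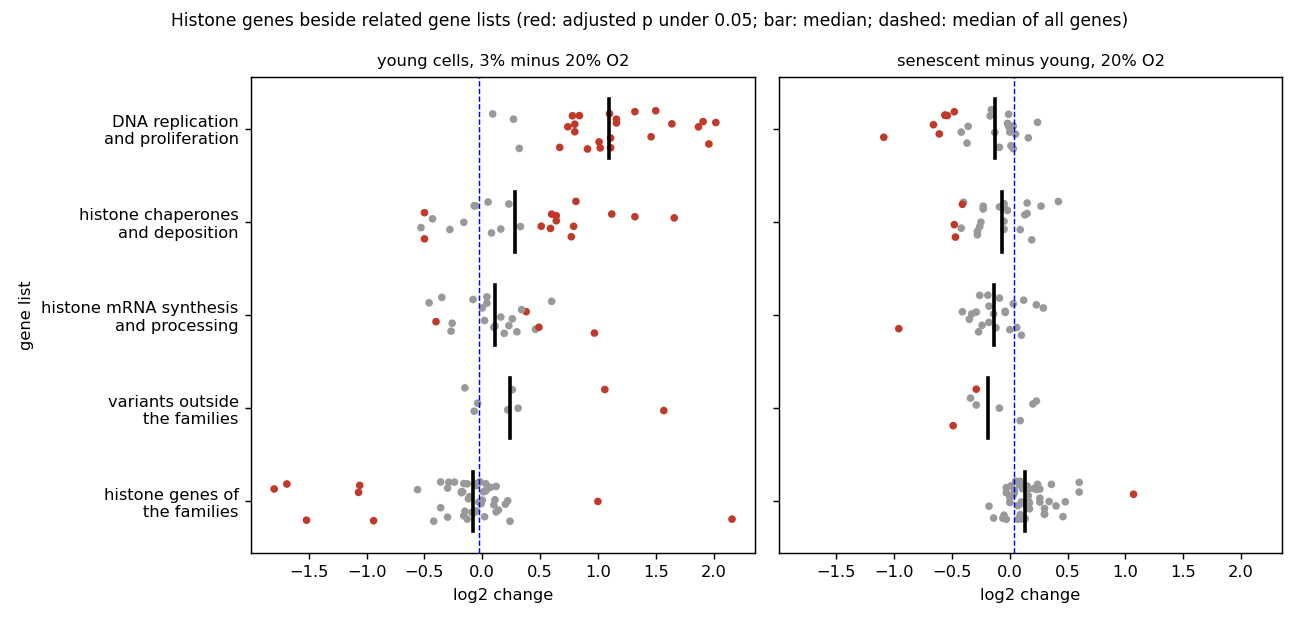
Log2 changes (horizontal axis) of single genes in 4 related lists and of the 50 members (vertical axis), in young cells by oxygen (left) and with senescence at 20% oxygen (right). Red points passed at an adjusted p under 0.05, bars are list medians and the dashed line is the median of all genes. On the left the replication list centres on 1.10 and the members on -0.08, and on the right they centre on -0.13 and 0.13.

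Of the histone chaperones and deposition factors, 24 of 25 were measured, and 11 were higher and 2 lower in young cells at 3% oxygen (median change 0.28). These were 54.2% of the factors measured, beside 11.8% of all genes. The largest changes were those of HJURP, which deposits the centromeric H3, at 3.16-fold (log2 1.66), ANP32E, a chaperone of H2A.Z, at 2.50-fold (log2 1.32), and ASF1B, a chaperone of H3 and H4, at 2.17-fold (log2 1.12, adjusted p = 7.07e-04). With senescence at 20% oxygen 3 of the 24 were lower and 0 higher, which is 12.5%, the share also found over all genes. NASP was lower by 0.48 log2 units (adjusted p = 0.00847). Of 23 genes that switch on and process histone messages, 3 were higher and 1 lower in young cells at 3% (median change 0.11). These were 17.4% of the list, beside 11.8% of all genes. CDK2, whose kinase acts on the histone gene coactivator NPAT, was 1.96-fold higher (log2 0.97, adjusted p = 3.46e-05), and CCNE1 was the lower one (log2 -0.40, adjusted p = 0.0313). NPAT itself changed by 0.60 (adjusted p = 0.135). SLBP, which binds the stem-loop of histone messages, changed by 0.16 (adjusted p = 0.417), and by -0.35 with senescence at 20% (adjusted p = 0.0537). CCNE1, NPAT and SLBP were picked after their values were seen. CCNE2 was the 1 gene of the list that passed with senescence at 20% (4.35% of the list, beside 12.5% of all genes). It was lower by 1.95-fold (log2 -0.96, adjusted p = 0.00189).

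Of the histone variants outside the named families 8 of 10 were measured. H2AZ1, the replication-independent H2A.Z, was 2.97-fold higher in young cells at 3% oxygen (log2 1.57, SE 0.09, adjusted p = 1.52e-07), opposite in sign to H2AC6, and H2AZ2 was the other of 2 that passed. The 2 were 25.0% of the variants measured, beside 11.8% of all genes. With senescence at 20% oxygen MACROH2A2 and MACROH2A1 were lower (log2 -0.49 and -0.29, adjusted p = 0.017 and 0.0405). They were 25.0% of the variants measured, where 12.5% of all genes passed.

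The cell type named in the labels could not be checked by level, because centring removes it. Of 12 fibroblast markers 9 differed between the groups, where 20.0% of all genes did. In young cells 4 of them (LUM, DCN, THY1 and PDGFRA) were lower at 3% oxygen, where 6.84% of all genes were. The mean of the 12 was 0.27 ± 0.04 in young cells at 20% and between -0.11 ± 0.02 and -0.01 ± 0.02 in the other groups. Differences were called for 2 of 10 epithelial, 0 of 8 endothelial and 0 of 7 measured immune markers, the epithelial share being that of all genes. The difference between the 2 ends of ACTB, a sign of RNA quality, ran from -0.219 to 0.706, the highest value being that of the second young array at 3%. Both ends were centred on their medians over the 12 arrays. The difference therefore compares arrays and does not show how intact the RNA was. With the ACTB value in the fit, all 8 members called in young cells by oxygen were again called, and H1-2 and H2BC5 also passed with senescence at 20% (adjusted p = 0.0301 and 0.00736). The part of the marker differences in the histone results was not tested.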

How the data were processed

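RNA of 12 Imr90 cultures was hybridised to 1-colour arrays, 1 array per sample. Per the submitters' processing notes the authors used RMA (robust multi-array averaging, version not stated). The deposited table holds log2 values of 54675 probe sets, each centred on its median over the 12 arrays (largest row median 5e-07). The log base is not stated and was taken from RMA. Array medians lay between -0.02 and 0.05, so no further normalisation was applied.

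Groups came from the sample labels. Probe sets were named through the platform annotation supplied with the data, updated by Entrez identifier to RefSeq symbols: 41091 named 1 gene (41037 matched by identifier), 1801 several and 11721 none, and 62 controls were left out. Values of probe sets naming 1 gene were averaged, giving 19775 genes. All 12 arrays were fitted with lmFit and eBayes (limma 3.58.1, R 4.3.3), and each comparison's two-sided p-values were given the Benjamini-Hochberg adjustment across the 19775 genes and called under 0.05. Folds are 2 raised to the absolute log2 change. Data were simulated for the senescent against young comparison at 20% oxygen, with 19775 genes and independent normal noise at each gene's own spread. Of 67, 67 and 66 genes changed by 0.5, 1 and 2 log2 units, 37.3%, 89.6% and 100% were called. In the deposited data 12.5% of genes were called in this comparison, so these shares need not hold there. Deviations of same-numbered senescent and old arrays correlated at 0.129, 0.519 and 0.669, the only pair of groups in which all 3 exceeded 0.1. The second senescent and the first old array reached 0.37, and the labels state no pairing.

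Values on every array were printed for members called in at least 1 comparison, and for H2BC4 as the neighbour of H2AC6, chosen after its values were seen. Other genes came from lists of known function, up to 4 per list by largest change. The members and lists were chosen with earlier results of these data known. Promoters came from the RefSeq table of GRCh38.p14, cut to the 250 bases before the start. Alternatives were quantile normalisation, array centring, array weights, a trended robust fit, only the groups compared, a replicate block, medians of probe sets, plain probe sets only, an ACTB covariate, a stricter threshold, and each array left out. A filter on flat genes and a block over senescent and old arrays alone were added after seeing the data.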

Additional observations from a re-analysis of the deposited data

Results flagged for a closer look

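H2AC6 was singled out because its passage change differed between the oxygen levels by the interaction test: it was 1.33 log2 units larger from young to senescent cells at 20% oxygen than from young to old cells at 3% (adjusted p = 6.85e-05, limma). Under the alternatives that could measure it the difference ran from 1.26 to 1.61.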

How the results depend on the processing

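Of 27 called values of single members in comparisons other than the one over all 4 groups, 22 kept their call and direction under every alternative that measured them and 0 reversed. The other 5 are those of H2BC6 in young cells by oxygen and of H2BC6, H2AC14 and H3C3 in senescent cells against the rest, and that of H1-2 in old against senescent cells, which lost its call only at an adjusted p under 0.01. Array weights called 22 members over the groups (10 reported), 15 as higher with senescence at 20% oxygen (1 reported), 1 as higher with passage at 3% (0 reported), 4 as higher in young cells at 3% (2), 5 as higher in old than senescent cells (2), 2 as lower in senescent cells against the rest (1) and 1 as lower in the interaction (0). The cause was not tested. The shares of all genes called under the alternatives are not given beside the member counts here. These counts therefore do not show a change particular to the members. Without probe sets marked _s_at or _x_at, which measure 7 of the 10 differing members, the counts were 3 over the groups, 0 higher with senescence at 20%, 1 higher and 1 lower in young cells by oxygen, 1 higher and 2 lower in old against senescent cells, 2 higher in senescent cells against the rest and 0 in the interaction. Members higher with senescence at 20% numbered 4 with quantile normalisation, 3 with only those groups fitted, 3 with the ACTB covariate, 3 without flat genes and 1 to 2 with 1 array left out. Members lower in senescent cells against the rest numbered 0 with quantile normalisation and at an adjusted p under 0.01, 2 with centred arrays and without flat genes, and 0 to 2 with 1 array left out. Without 1 array, 0 to 2 members were higher with passage at 3%. The replicate block gave 2 members higher with senescence at 20%, and, over the senescent and old arrays alone, 3 higher and 8 lower in old cells. It moved no other count past 1.5 times. A filter on dim genes was not run, because centred values carry no level, and fitting only the groups compared changes nothing where a comparison uses all 4. Signal over background cannot be read from these values.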

Other observations

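On single arrays, the second senescent array was the highest of its group in 34 of the 50 histone members (51.0% of all genes), the third senescent array was the lowest in 32 (46.5%), and the third old array at 3% oxygen was the lowest of its group in 35 (53.5%). A probe set shared by H2AC18 and H2AC19 beside the one described read 0.02, -0.30 and 0.37 in young cells at 20% oxygen, 0.75, 0.81 and 0.70 in senescent cells, -0.44, -0.15 and -0.11 in young cells at 3% and -0.01, 0.01 and -0.18 in old cells. The signal was 1.65-fold higher in senescent than in young cells at 20% (log2 change 0.72, SE 0.16, adjusted p = 0.0106). The other probe sets naming this pair changed by 0.60 and 0.52 and did not pass (adjusted p = 0.0908 and 0.0956).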
